A study of Mus musculus with 2 samples.

Results

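The subject here is the chemokine ligand family without Cxcl12: 34 mouse genes that encode CC, CXC, CX3C and XC chemokines, taken by symbol from a fixed list of members. Of these 34 genes, 33 had a feature among the 32245 gene symbols measured, and Cxcl11 had none and was not analysed. The cells came from injured tendon of mice aged 12 weeks, taken 14 days after surgery and measured by droplet single-cell RNA sequencing on the 10x Genomics platform. The TrkA F592A library (titled INMPP1) pooled 3 mice that carry TrkA F592A, an analog-sensitive allele whose kinase a bulky inhibitor can block. The TrkA WT library (titled Control) pooled 3 mice with wild-type TrkA. The labels do not say whether the WT mice received an inhibitor. With 1 library per genotype there is no replicate, so no difference below was tested, and genotype, treatment, library and the individual mice cannot be told apart. Each interval below is a 95% interval for counting error only.

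Chemokines are small secreted proteins that guide leukocytes through G protein-coupled receptors, and most are named for the spacing of their first cysteines. CXC chemokines with a Glu-Leu-Arg motif attract neutrophils through Cxcr2, several CC chemokines attract monocytes through Ccr2, and others position dendritic cells and lymphocytes. In healing tendon, resident fibroblasts, vessel wall cells and macrophages that enter the wound are all known sources.

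After filtering, removal of doublets and removal of barcodes found in both libraries, 8333 F592A cells and 11143 WT cells remained. Before that last step the median was 17886.5 unique molecular identifiers (UMIs) per F592A cell and 15870 per WT cell. The libraries shared 764 barcodes, and in 719 of these the UMI totals of both libraries lay within 30% of each other. Cells with these barcodes were left out, 111 of them from the F592A cells and 114 from the WT cells. Cells were gated by marker genes into classes, of which 8 are used here. The stromal class, fibroblasts and tenocytes, held 4738 F592A and 6623 WT cells. The macrophage class held 1571 F592A and 2405 WT cells, the mural class (pericytes and smooth muscle) 587 and 568, blood endothelium 608 and 535, and neutrophils 131 and 205. The smallest classes were lymphatic endothelium with 65 F592A and 70 WT cells, dendritic cells with 62 and 65, and T or NK cells with 99 and 82. Tenocyte-like cells, defined by markers such as Tnmd and Kera, made up 11.9% of F592A and 10.3% of WT stromal cells.

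Levels are in CPM, the UMIs of a gene in proportion to all UMIs of its class in that library. A UMI counts a captured molecule once, so levels were set side by side between genes without a correction for length. A ligand was taken as measured in a class with at least 100 UMIs over both libraries and at least 5 CPM in one, and as higher or lower at a 1.5-fold difference. A class within 4-fold of the ligand's highest class is called a source below, and 28 of the 33 ligands were measured in a source. Since RNA freed from broken cells enters every droplet, the level expected from free RNA was estimated from genes that mark another class, such as C1qa for macrophages.

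Chromosome 11 holds 11 members and chromosome 5 holds 10, part of them close neighbours. The proximal promoters of 8 members that the results below turn on are shown for comparison: 4 CXC genes that held an NF-kB motif, and 4 CC genes whose macrophage levels lay apart between the libraries. Each line gives the bases from 200 to 31 before the RefSeq start (build GRCm38.p6), 170 bases on the gene's strand, and capitals mark a motif form bound by NF-kB on either strand (GGG, then 3 bases of any kind, then TTCC), where overlapping matches form 1 site.
Cxcl1: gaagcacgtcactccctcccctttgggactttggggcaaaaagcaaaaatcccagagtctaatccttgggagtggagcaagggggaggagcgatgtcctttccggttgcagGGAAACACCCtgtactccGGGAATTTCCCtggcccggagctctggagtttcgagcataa
Cxcl2: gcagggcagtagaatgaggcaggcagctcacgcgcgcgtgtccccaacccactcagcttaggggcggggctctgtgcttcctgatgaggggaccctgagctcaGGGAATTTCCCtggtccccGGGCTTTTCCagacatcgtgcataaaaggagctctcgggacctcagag
Cxcl3: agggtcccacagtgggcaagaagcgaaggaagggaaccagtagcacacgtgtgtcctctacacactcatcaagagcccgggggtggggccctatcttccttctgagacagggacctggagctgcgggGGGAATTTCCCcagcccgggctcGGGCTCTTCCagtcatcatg
Cxcl10: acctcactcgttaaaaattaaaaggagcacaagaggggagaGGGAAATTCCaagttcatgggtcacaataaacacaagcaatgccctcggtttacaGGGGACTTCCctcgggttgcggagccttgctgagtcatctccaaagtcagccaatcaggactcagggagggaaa
Ccl8: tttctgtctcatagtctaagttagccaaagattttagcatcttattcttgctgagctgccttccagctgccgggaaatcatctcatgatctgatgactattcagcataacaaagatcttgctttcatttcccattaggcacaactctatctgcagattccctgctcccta
Ccl12: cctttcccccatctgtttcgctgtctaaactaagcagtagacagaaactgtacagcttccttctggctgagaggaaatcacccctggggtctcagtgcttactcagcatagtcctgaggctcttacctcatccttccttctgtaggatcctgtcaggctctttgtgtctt
Ccl6: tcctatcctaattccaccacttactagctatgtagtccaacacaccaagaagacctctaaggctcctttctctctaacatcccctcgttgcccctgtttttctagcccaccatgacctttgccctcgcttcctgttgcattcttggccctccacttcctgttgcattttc
Ccl9: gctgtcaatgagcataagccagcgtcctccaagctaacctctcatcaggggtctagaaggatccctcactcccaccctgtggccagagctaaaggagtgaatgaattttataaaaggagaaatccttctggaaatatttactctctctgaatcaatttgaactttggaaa
Cxcl1 lies at chr5:90891045-90891214 on the + strand, Cxcl2 at chr5:90903699-90903868 on the + strand, Cxcl3 at chr5:90785901-90786070 on the + strand and Cxcl10 at chr5:92348920-92349089 on the - strand. Ccl8 lies at chr11:82114985-82115154 and Ccl12 at chr11:82101645-82101814, both on the + strand. Ccl6 lies at chr11:83593118-83593287 and Ccl9 at chr11:83578667-83578836, both on the - strand. Of the 24 members with a promoter in the RefSeq table, 5 (20.8%) held this motif in the window, against 3.1% of all 32851 promoters. Members were counted by gene, over 27 promoters, and the background by promoter, so the units differ here and for the motifs below. The 10 members without a promoter in that table were not searched. These were Cxcl1, Cxcl2 and Cxcl3 with 2 sites each, Cxcl10 with 2, and Ccl20 with 1. The interferon response form (GAAA, 2 bases of any kind, GAAA, either strand) was in 1 of the 24, Cxcl14, against 1.92% of all promoters. The STAT form TTCNNNGAA, which reads alike on both strands, was in 2, Ccl17 and Cxcl14, against 4.73%. Absence of these letters says nothing on other windows or on binding.

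Cxcl2 and Cxcl1, Cxcr2 ligands that draw neutrophils, were abundant members. Cxcl2 stood at 16624 CPM in F592A macrophages, against 15905 CPM in WT macrophages, and took 49.5% of all ligand UMIs in F592A macrophages and 48.8% in WT macrophages. Its macrophage levels differed by less than 1.5-fold, with a log2 ratio of 0.06. In neutrophils Cxcl2 stood at 9970 CPM in the F592A library, against 24286 CPM in the WT library, a log2 ratio of -1.28 (interval -1.33 to -1.24). With each cell thinned to 2000 UMIs, 82.6% of F592A and 98.8% of WT neutrophils held a Cxcl2 UMI. Neutrophils are shallow cells, with a median of 3063 UMIs in the F592A library and 2494 in the WT library, and thinning left out 10 F592A and 35 WT cells. Among thinned stromal cells, with median depths of 24450.5 and 22205 UMIs before thinning, 19.0% of F592A and 28.0% of WT cells held one. With the stricter cell filter (at least 1000 genes and 2000 UMIs) the neutrophil log2 ratio of Cxcl2 was -0.65.

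Cxcl1 was spread over 3 sources. In mural cells its level was 1473 CPM in the F592A library and 2826 CPM in the WT library, a log2 ratio of -0.94 (interval -0.97 to -0.91). Macrophages held 1880 CPM in the F592A library and 2651 CPM in the WT library (log2 ratio -0.50), and stromal cells 660 and 776 CPM (log2 ratio -0.24), both within 1.5-fold. The stromal value varied by cell state: Cxcl1 was lower in F592A Angptl7 surface cells (log2 ratio -1.24), while its log2 ratio was 0.50, within 1.5-fold, in cells with Gdf10 and Hmcn2.

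Cxcl3, another Cxcr2 ligand, was lower in the F592A library in both of its sources. It stood at 193 CPM in F592A macrophages and 332 CPM in WT macrophages (log2 ratio -0.79), and at 254 CPM in F592A neutrophils and 672 CPM in WT neutrophils (log2 ratio -1.40). The neutrophil ratio was -0.75 with the stricter cell filter. Cxcl5, which shares that receptor, was found mostly in stromal cells, which held 98.7% of its UMIs in the F592A library and 99.1% in the WT library. Its stromal level was 73.4 CPM in F592A cells and 154 CPM in WT cells, a log2 ratio of -1.07 (interval -1.10 to -1.03). By state, Cxcl5 was lower in F592A cells with Ptn and Mdk (73.8 against 334 CPM in WT) and in F592A Pi16 adventitial cells (76.5 against 219 CPM in WT). In cells with Cd55 and Prss23 it was level, at 376 CPM in F592A and 350 CPM in WT. Ppbp, the platelet member, had 5.57 CPM in F592A and 7.97 CPM in WT macrophages, its highest class, and no cell passed the platelet gate. The 8 classes held 133 of the 290 Ppbp UMIs in all F592A cells and 235 of the 261 in all WT cells.

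**Figure D1:**
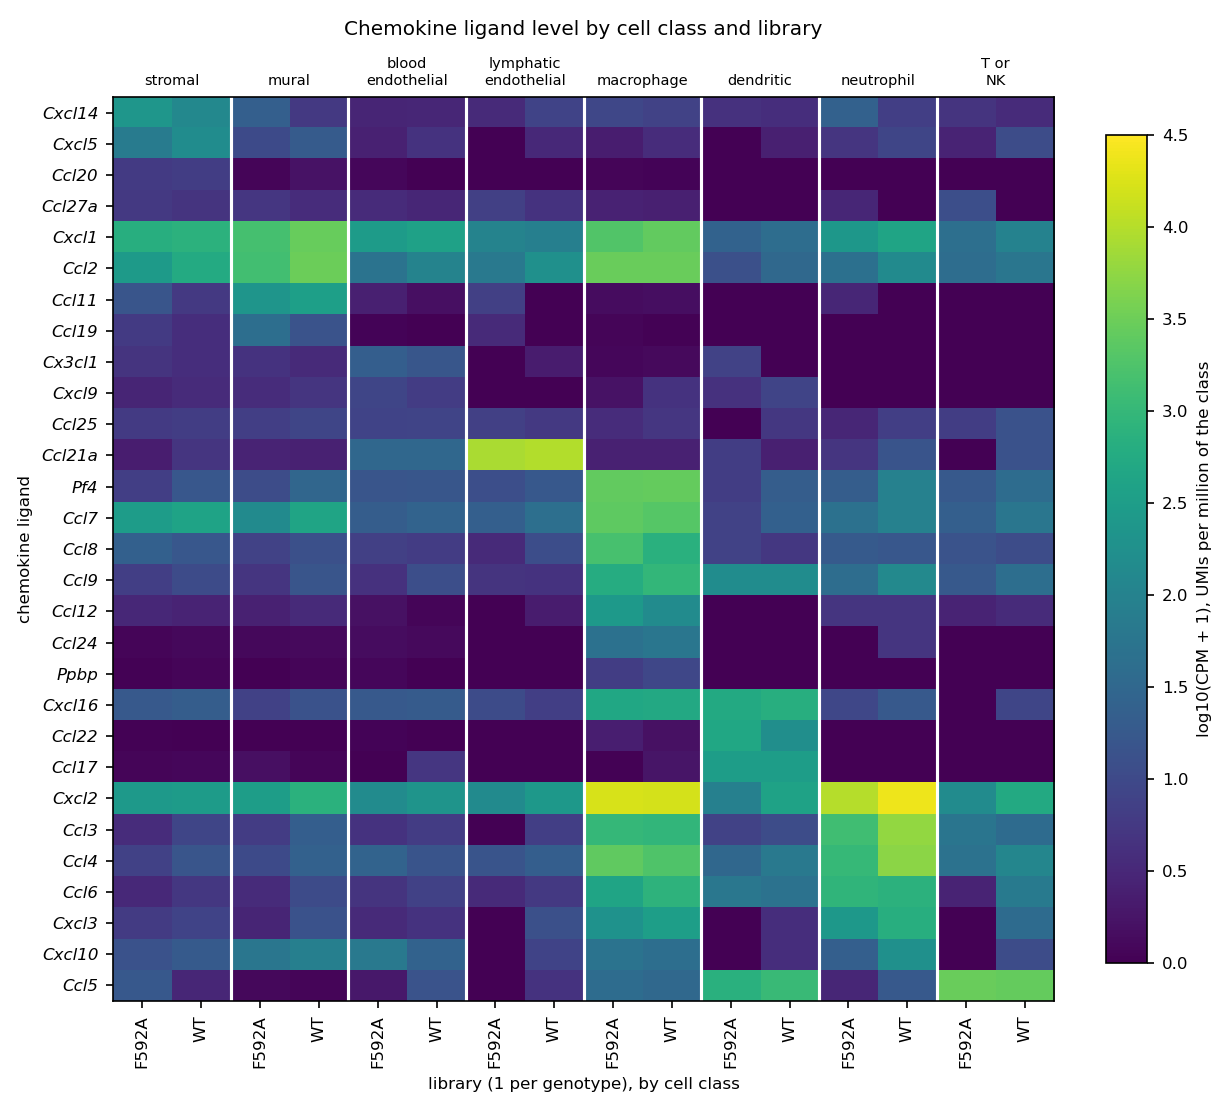
Level of the 29 chemokine ligands with at least 100 UMIs in at least 1 class, as log10(CPM + 1) by colour, with the F592A library left of the WT library within each cell class (columns). Cxcl2 is brightest in macrophages and neutrophils, Ccl21a in lymphatic endothelium, and Ccl5 in dendritic and T or NK cells.

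The monocyte attractants split by cell class. Ccl2, the main Ccr2 ligand, stood at 1353 CPM in F592A mural cells and 3054 CPM in WT mural cells, a log2 ratio of -1.17 (interval -1.21 to -1.14). It was alike in macrophages, at 2909 CPM in the F592A library and 2922 CPM in the WT library (log2 ratio -0.01). Both mural subsets had less Ccl2 in the F592A library: 1826 against 3918 CPM in WT for cells with Kcnj8 and Abcc9 (pericyte genes), and 898 against 1941 CPM in WT for cells with Myh11 (a smooth muscle gene). In thinned mural cells, 36.8% of F592A and 52.6% of WT cells held a Ccl2 UMI. In thinned T or NK cells, which are not known for this gene, the shares were 7.22% and 8.86%, with median depths of 4876 and 3740.5 UMIs per cell before thinning, against 11911 and 10193 in mural cells.

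Stromal cells held less Ccl2 per UMI but are many. Their level lay over 4-fold below the mural one and is named after its values were seen: 281 CPM in F592A cells and 557 CPM in WT cells, a log2 ratio of -0.99. The Ccl2 log2 ratio was negative in all 7 stromal states and in the cells with no state, from a log2 ratio of -0.26 in cells with Gdf10 and Hmcn2 to -1.40 in Angptl7 surface cells. Of the Ccl2 UMIs in the 8 classes, macrophages held 58.3% in the F592A library and 42.0% in the WT library, and stromal cells 31.7% and 47.2%. Blood endothelium had 49.8 CPM in F592A and 102 CPM in WT cells, beside 31.1 and 37.7 CPM expected from free RNA.

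Ccl7, the neighbouring gene 8.26 kb away and also a Ccr2 ligand, followed Ccl2 in macrophages, at 2386 CPM in the F592A library and 2023 CPM in the WT library (log2 ratio 0.24). Outside its source class it had 144 CPM in F592A mural cells and 418 CPM in WT mural cells (log2 ratio -1.54), values named after they were seen. The free RNA expected there was 66.4 and 131 CPM by the median of the tracking genes and 21.8 and 48.6 CPM by the lowest of them. In single thinned macrophages the pair was often found together: 83.6% of F592A and 77.4% of WT macrophages with a Ccl2 UMI held a Ccl7 UMI. Among those without one, the shares were 21.0% and 19.3%.

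Ccl8 and Ccl12, which lie 11.8 kb apart downstream of Ccl2, were higher in F592A macrophages. Ccl8, in mouse a ligand of Ccr8, stood at 1552 CPM in F592A macrophages and 730 CPM in WT macrophages, a log2 ratio of 1.09 (interval 1.06 to 1.11). Ccl12, a rodent Ccr2 ligand, stood at 264 and 146 CPM, a log2 ratio of 0.86 (interval 0.80 to 0.92). Ccl8 was higher in all 3 macrophage states and in the macrophages with no state. Ccl12 was higher in all of these but the C1q and Mrc1 state, where it had 337 CPM in F592A and 276 CPM in WT cells (log2 ratio 0.29). Ccl8 was highest in macrophages with C1q and Mrc1, at 3305 CPM in the F592A library and 1710 CPM in the WT library, and lowest in those with Gpnmb and Mmp12, at 276 and 169 CPM. For Ccl12 the widest gap was in the Gpnmb and Mmp12 state, at 82.8 CPM in F592A and 26.3 CPM in WT cells. In thinned macrophages 32.5% of F592A and 22.1% of WT cells held a Ccl8 UMI, against 2.83% and 2.95% of thinned stromal cells, where Ccl8 stood at 23.4 and 15.9 CPM.

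Ccl6 and Ccl9, rodent Ccr1 ligands whose genes lie 9.25 kb apart, ran the other way in macrophages. Ccl6 stood at 423 CPM in F592A macrophages and 815 CPM in WT macrophages, a log2 ratio of -0.95 (interval -0.98 to -0.91). Ccl9 stood at 605 CPM in F592A and 972 CPM in WT macrophages, a log2 ratio of -0.68 (interval -0.72 to -0.65). Ccl6 was lower in F592A cells of all 3 states and of no state. Ccl9 was lower in all of these but the Gpnmb and Mmp12 state, where its log2 ratio was -0.55. In neutrophils Ccl6 did not follow, at 869 CPM in the F592A library and 793 CPM in the WT library (log2 ratio 0.13, interval -0.07 to 0.33). Of thinned macrophages with a Ccl6 UMI, 64.4% of F592A and 76.1% of WT cells held a Ccl9 UMI. Among those without one, the shares were 41.0% and 48.8%.

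Macrophage states were not equally frequent, and this stands beside these values: cells with Gpnmb and Mmp12 made up 17.7% of F592A and 25.5% of WT macrophages, and cells with Ccr2 and MHC class II 29.1% and 23.1%. Retnla, a gene of the type 2 cytokine response, stood at 124 CPM in F592A and 16.8 CPM in WT macrophages, and Arg1, of the same list, at 11.0 and 34.6 CPM. Of that list, 2 of 8 measured genes were higher and 2 lower in F592A macrophages, against 1.66% and 2.84% of all genes there. How far these values bear on the ligand levels was not tested.

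**Figure D2:**
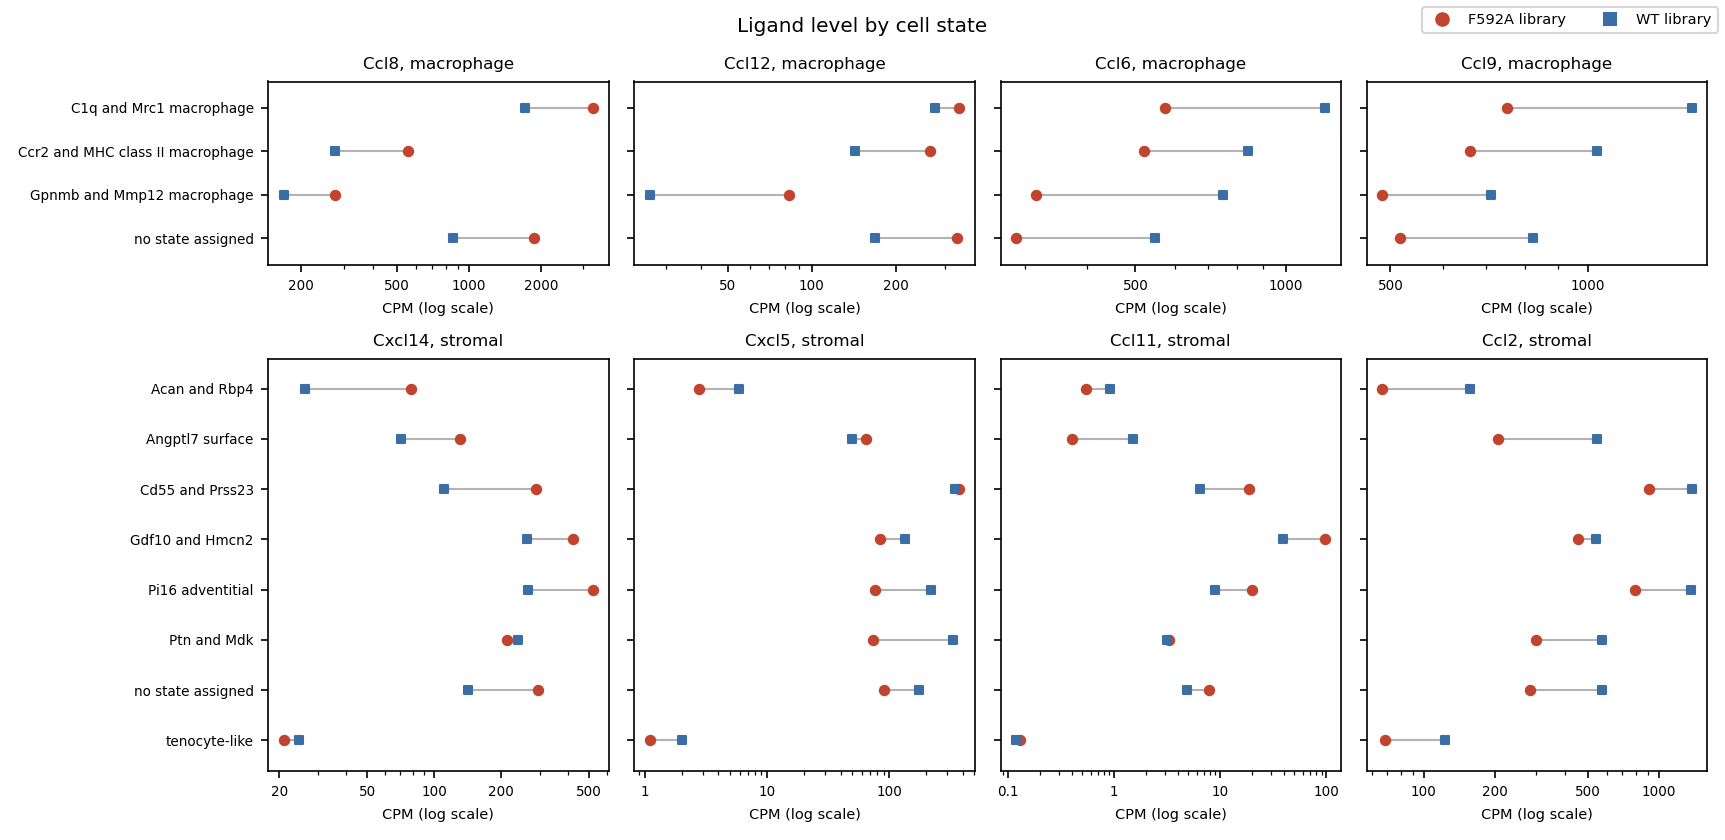
Level (CPM, log axis) of 4 ligands in macrophage states and 4 in stromal states, with circles for the F592A library and squares for the WT library. Ccl8 and Ccl12 lie to the right of WT, and Ccl6 and Ccl9 to the left, in all 3 macrophage states and in the cells with no state, while Cxcl5 changes side between stromal states.

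Ccl3 and Ccl4, neighbouring genes whose products are known as macrophage inflammatory proteins, were the ligands furthest apart in neutrophils after Cxcl10. Ccl3 stood at 1318 CPM in F592A neutrophils and 5828 CPM in WT neutrophils, a log2 ratio of -2.14 (interval -2.27 to -2.02). Ccl4 stood at 1013 CPM in F592A and 5258 CPM in WT neutrophils, a log2 ratio of -2.38 (interval -2.52 to -2.24). With the stricter cell filter these ratios were -1.36 for Ccl3 and -1.55 for Ccl4, and with Leiden clusters in place of the gate -1.48 and -1.55. In thinned cells, 40.5% of F592A and 65.9% of WT neutrophils held a Ccl3 UMI, against 0.596% and 1.15% of stromal cells. Macrophages showed no such gap: Ccl4 stood at 2487 CPM in the F592A library and 1844 CPM in the WT library (log2 ratio 0.43). Ccl3, named here after its values were seen, since its macrophage level was over 4-fold below the neutrophil one, stood at 999 and 912 CPM (log2 ratio 0.13). Macrophages held 95.2% of the Ccl3 UMIs in the F592A library and 84.5% in the WT library, neutrophils 2.89% and 10.5%.

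Ccl5, a ligand made by T cells, stood at 2936 CPM in F592A T or NK cells and 2774 CPM in WT T or NK cells (log2 ratio 0.08). In dendritic cells it was lower, at 717 CPM in the F592A library and 1140 CPM in the WT library (log2 ratio -0.67), carried by 16 F592A and 24 WT cells. The ratio was -1.36 with each cell weighted equally or thinned. Stromal cells are no usual source, and their value was named after it was seen: 16.3 CPM in F592A cells and 2.09 CPM in WT cells, a log2 ratio of 2.96. These UMIs came from 64 F592A and 106 WT cells, and 1 cell gave 29.5% of them in the F592A library and 31.4% in the WT library. In blood endothelium Ccl5 had 9 UMIs in the F592A library and 96 in the WT library, 93.8% of the WT ones in 1 cell. Xcl1, a T and NK cell ligand for Xcr1 on dendritic cells, had 25 UMIs in F592A and 19 in WT T or NK cells, under the minimum for a ratio.

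Ccl11 and Ccl24, eotaxins that attract eosinophils through Ccr3, had separate sources. Ccl11 had its highest level in mural cells, at 223 CPM in F592A and 340 CPM in WT mural cells, a log2 ratio of -0.61 (interval -0.70 to -0.51). That ratio lies close to the 1.5-fold limit, and under 5 of the alternative settings it fell inside it, the nearest to 0 being -0.45. The stromal level of Ccl11 was far lower and ran the other way, at 14.1 CPM in F592A and 4.66 CPM in WT cells (log2 ratio 1.60, named after it was seen). In cells with Gdf10 and Hmcn2 it stood at 97.9 CPM in the F592A library and 38.8 CPM in the WT library. These cells held 1130 of the 1729 stromal Ccl11 UMIs in the F592A library and 181 of 732 in the WT library, and made up 13.1% of F592A and 4.15% of WT stromal cells. Of the Ccl11 UMIs in the 8 classes, mural cells held 49.01% in the F592A library and 73.86% in the WT library, and stromal cells 50.15% and 25.59%. Ccl24 stood at 45.9 CPM in F592A and 58.0 CPM in WT macrophages (log2 ratio -0.34), and its ratio varied by state. It was level in the C1q and Mrc1 state, at 108 CPM in F592A and 110 CPM in WT cells. With Ccr2 and MHC class II it had 15.9 CPM in F592A and 33.5 CPM in WT cells (log2 ratio -1.07). With Gpnmb and Mmp12 it had 11.4 and 28.1 CPM (log2 ratio -1.30). In macrophages with no state the log2 ratio was -0.55.

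Cxcl14, a chemokine of fibroblasts and epithelium with a debated receptor, was higher in F592A stromal cells, as were Ccl5 and Ccl11. Stromal cells held 98.7% of its UMIs in the F592A library and 98.8% in the WT library. Its level was 228 CPM in F592A and 123 CPM in WT stromal cells, a log2 ratio of 0.89 (interval 0.87 to 0.92). In thinned stromal cells 16.2% of F592A and 11.3% of WT cells held a UMI, against 0.901% and 0.967% of macrophages; median depths before thinning were 24450.5 and 22205 UMIs in stromal cells and 13386 and 10390 in macrophages. By state it was highest in Pi16 adventitial cells, at 521 CPM in the F592A library and 264 CPM in the WT library. Tenocyte-like cells were low in both, at 21.0 and 24.6 CPM, and cells with Ptn and Mdk had 213 and 239 CPM. Only these last states lay below WT.

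Cxcl9 and Cxcl10, Cxcr3 ligands induced by interferon, had low levels in many classes. Cxcl10 stood at 66.3 CPM in F592A and 24.9 CPM in WT blood endothelium, a log2 ratio of 1.41 (interval 1.17 to 1.66), from 55 F592A and 28 WT cells. A single cell gave 17.6% of these UMIs in the F592A library and 38.0% in the WT library. In mural cells Cxcl10 had 58.5 and 86.0 CPM (log2 ratio -0.55), and in macrophages 51.5 and 41.0 CPM (log2 ratio 0.33), both within 1.5-fold. Its neutrophil values were 22.0 CPM in the F592A library and 177 CPM in the WT library (log2 ratio -3.01), but from 5 F592A and 10 WT cells, with 66.3% of the WT UMIs in 1 cell. Without interferon-high cells the log2 ratio was 0.25 in neutrophils (9 F592A and 22 WT cells left out), 1.13 in macrophages and 2.23 in blood endothelium. With free RNA subtracted it was 0.69 in macrophages. That estimate took the share of neutrophil RNA in macrophages as 10.1% in F592A and 5.76% in WT, the median of 4 tracking genes. The lowest of these genes, S100a9, gave 0.0264% and 0.0516%. Another, Il1b, stood at 2827 CPM in F592A and 3035 CPM in WT macrophages, so the subtraction there may be too large. Cxcl9 had 7.60 CPM in F592A and 5.29 CPM in WT blood endothelium, with 78.9% of the WT UMIs in 1 cell.

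The ligands of lymphatic and dendritic cells act on Ccr7 and Ccr4. Ccl21a, which guides Ccr7-bearing dendritic cells to lymphatic vessels, stood at 8620 CPM in F592A and 9470 CPM in WT lymphatic endothelium (log2 ratio -0.14, interval -0.18 to -0.09). A Ccl21a UMI was present in 93.5% of thinned F592A and 89.6% of thinned WT lymphatic cells, against 0.192% and 0.321% of thinned stromal cells. Mouse chromosome 4 holds near-identical copies of Ccl21a, Ccl19 and Ccl27a, so reads shared between copies make these levels uncertain. Ccl19, the other Ccr7 ligand, stood at 40.4 CPM in F592A and 13.2 CPM in WT mural cells (log2 ratio 1.61, interval 1.26 to 1.98). It came from 45 F592A and 33 WT cells, and most of the mural UMIs were in the Myh11 subset, at 78.0 CPM in F592A and 25.1 CPM in WT cells. Stromal cells, at 4.85 CPM in F592A and 2.94 CPM in WT, held 65.6% of all Ccl19 UMIs in the F592A library and 84.6% in the WT library, so that mural cells held the smaller part in both.

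Ccl17 and Ccl22 are Ccr4 ligands of dendritic cells. Ccl22 stood at 477 CPM in F592A and 168 CPM in WT dendritic cells (log2 ratio 1.51, interval 1.21 to 1.82), from 17 F592A and 13 WT cells. Ccl17 stood at 320 CPM in the F592A library and 323 CPM in the WT library, from 9 and 11 cells. Its log2 ratio was -0.01, but -3.84 with a stricter gate margin, so the value depends on which cells are counted as dendritic. The 8 classes held 304 of the 483 Ccl17 UMIs in all F592A cells and only 309 of the 825 in all WT cells. For Ccl22 they held 458 of 563 in F592A cells and 135 of 211 in WT cells. With so few cells, 1 dendritic cell gave 32.6% of the Ccl22 UMIs in the F592A library and 39.1% in the WT library.

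The transmembrane chemokines Cxcl16 and Cx3cl1 are shed from the cell surface by Adam10 and Adam17. Cxcl16, which binds Cxcr6, stood at 483 CPM in F592A and 510 CPM in WT macrophages (log2 ratio -0.08) and at 544 and 663 CPM in dendritic cells (log2 ratio -0.29). Cx3cl1, the ligand of Cx3cr1, had 21.2 CPM in F592A and 14.9 CPM in WT blood endothelium (log2 ratio 0.51, interval 0.17 to 0.86). All of these lay within 1.5-fold, as did both sheddases in every class where they were measured. Pf4, a platelet chemokine that wound macrophages also make, stood at 2646 CPM in F592A and 2689 CPM in WT macrophages (log2 ratio -0.02).

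Several members were scarce. Ccl20, a Ccr6 ligand, had 4.85 CPM in F592A and 5.54 CPM in WT stromal cells, from 37 and 76 cells. Ccl25 had 7.18 CPM in F592A and 7.23 CPM in WT blood endothelium and 4.93 and 5.62 CPM in stromal cells, both within 1.5-fold. Ccl27a had 4.65 CPM in F592A and 3.79 CPM in WT stromal cells, under the 5 CPM minimum. Ccl28 had 32 UMIs in F592A and 51 in WT stromal cells, and Cxcl17 had 6 and 7 UMIs in all 8 classes. Cxcl13, which guides B cells, had 96 UMIs in F592A macrophages, all in 1 cell, and 0 in WT macrophages.

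**Figure D3:**
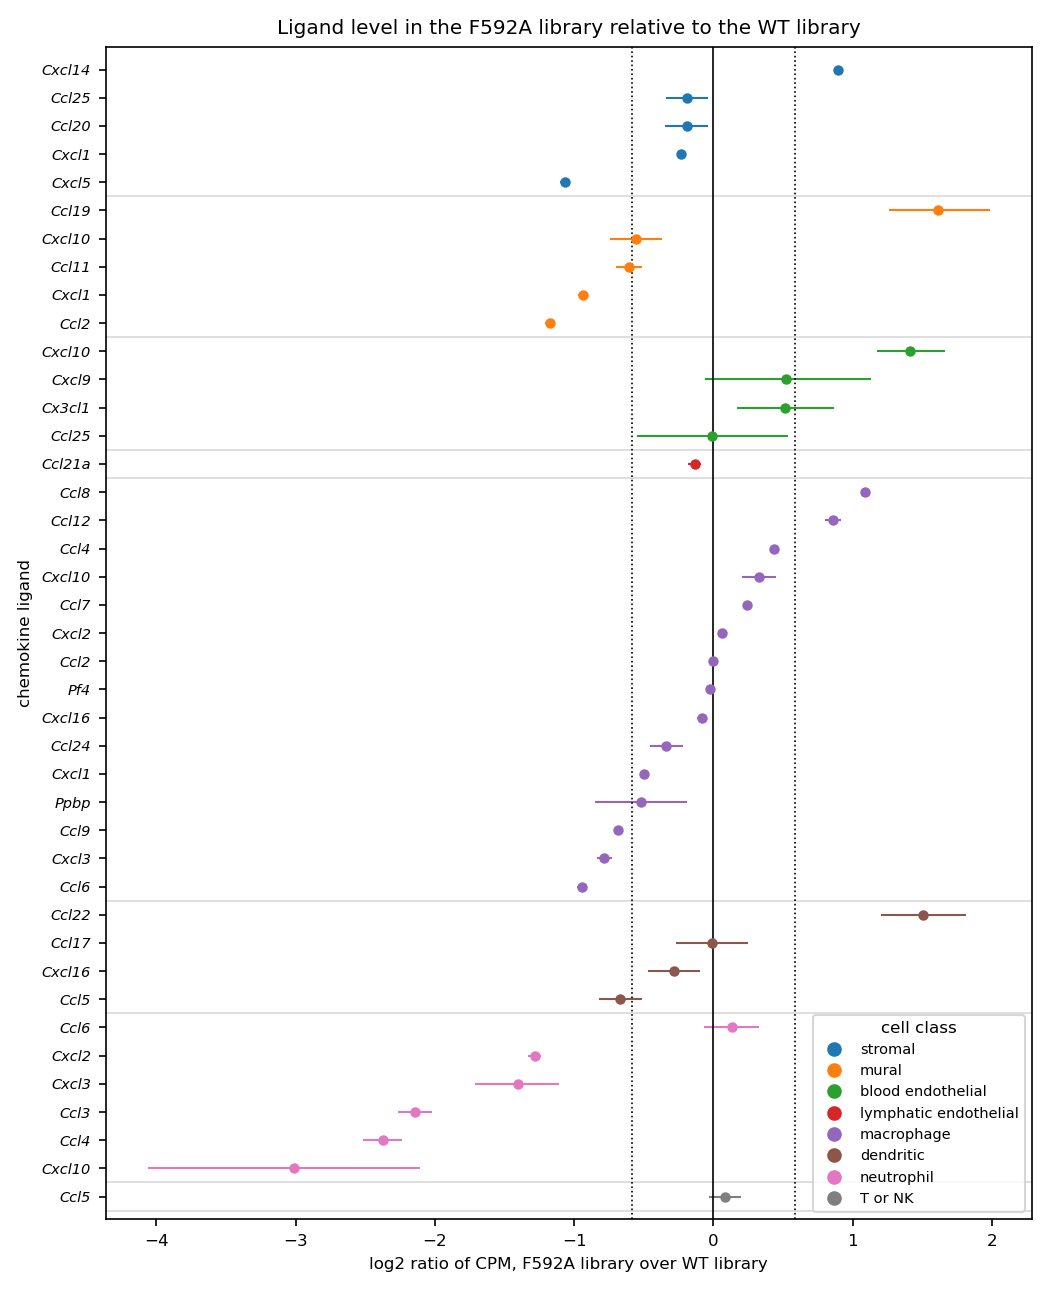
Log2 ratio of level, F592A library over WT library, with its 95% counting interval, for the 41 pairs of a ligand and a source class, ordered within class. Dotted lines mark 1.5-fold, and the neutrophil ratios of Ccl3 (-2.14) and Ccl4 (-2.38) lie furthest left apart from Cxcl10.

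Over the 41 pairs of a ligand and a source class, 6 were higher in the F592A library, 13 were lower and 22 lay within 1.5-fold. The higher pairs were 2 in macrophages and 1 each in stromal, mural, blood endothelial and dendritic cells. The lower ones were 5 in neutrophils, 3 in mural cells, 3 in macrophages and 1 each in stromal and dendritic cells. Shares over all genes differ by class and follow. The counts beside them are over all ligands measured in a class, source or not. In macrophages, of 18 ligands measured, 2 were higher and 3 lower, against 1.66% higher and 2.84% lower of all genes measured in that class. In stromal cells 3 of 18 were higher and 6 lower, against 1.75% and 2.59% of all genes. In neutrophils 0 of 7 were higher and 6 lower, against 14.0% and 14.0% of all genes. In mural cells 2 of 15 were higher and 12 lower, against 4.21% and 8.04%. In blood endothelium the counts were 2 higher and 3 lower of 14, against 2.33% and 8.47%. In dendritic cells they were 1 higher and 2 lower of 6, against 5.53% and 8.93%. T or NK cells had 0 higher and 1 lower of 2, against 8.05% and 14.8%. In lymphatic endothelium 0 were higher and 2 lower of 4, against 4.95% and 13%. Of these, Ccl2 had 63.8 CPM in F592A and 177 CPM in WT cells, beside 29.7 and 45.2 CPM expected from free RNA. The median log2 ratio of the measured ligands was -1.41 in neutrophils, against 0.00 for all genes there, -1.01 in mural cells against -0.08, -0.34 in stromal cells against -0.09, and 0.03 in macrophages against -0.07.

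Part of these calls stood near the level expected from free RNA. In mural cells 8 of the 15 measured ligands stood below 2 times the level expected from free RNA in both libraries, among them Ccl3, Ccl4, Ccl8, Ccl9, Cxcl16 and Pf4, and 7 of the 12 lower calls were among these 8. The share of macrophage RNA in mural cells was itself 0.370% in the F592A library and 1.63% in the WT library. The other ligands lower in F592A mural cells were Ccl2, Ccl7, Ccl11, Cxcl1 and Cxcl2, each at 2 times the expected level or more in at least 1 library. Cxcl2, named after its values were seen, had 322 CPM in F592A and 760 CPM in WT mural cells, beside 121 and 394 CPM expected by the median tracking gene and 59.6 and 205 CPM by the lowest. By the median estimate Cxcl2 passed 2 times the expected level in the F592A library only, and its WT level lay below that limit. In stromal cells Ccl3, Ccl4 and Pf4 stood at or below the expected level, for example Pf4 at 5.89 CPM in F592A and 15.6 CPM in WT cells beside 12.4 and 16.2 CPM expected. The ligands lower in F592A macrophages and F592A neutrophils stood above 2 times the expected level in both libraries. In blood endothelium 1 of the 2 higher and 1 of the 3 lower calls stood below 2 times in both libraries. So did 1 of the 2 lower calls in dendritic cells and 1 of the 2 in lymphatic endothelium. The only call in T or NK cells, Cxcl2, also stood below 2 times in both libraries. Where a class itself makes a tracking gene the median estimate is too high. The lowest is given beside it only for Ccl7 and Cxcl2 in mural cells and for neutrophil RNA in macrophages. All counts of ligands near free RNA use the median alone. The stromal share in mural cells was 18.97% in F592A and 23.83% in WT by the median, but 5.10% and 6.26% by the lowest. Fewer mural ligands may therefore stand near free RNA than counted.

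The receptors, a list of 18 signalling and 3 atypical genes, were highest in leukocyte classes or endothelium for most of the genes named here. Cxcr2, the receptor of Cxcl1, Cxcl2, Cxcl3 and Cxcl5, stood at 647 CPM in F592A and 731 CPM in WT neutrophils. Ccr1 stood at 713 and 806 CPM there, and Ccr7 at 884 CPM in F592A and 1059 CPM in WT dendritic cells. Ccr2 was highest in T or NK cells, at 506 CPM in the F592A library and 406 CPM in the WT library. These 4 lay within 1.5-fold in their highest class. In dendritic cells, not its highest class, Ccr2 was higher, at 176 CPM in F592A and 111 CPM in WT cells (log2 ratio 0.67). Cx3cr1 was higher in F592A macrophages, at 68.9 CPM against 32.4 CPM in WT (log2 ratio 1.09), and Cxcr6 in F592A T or NK cells, at 679 CPM against 365 CPM in WT (log2 ratio 0.89). Ccrl2, which holds the attractant chemerin at the surface, was lower in F592A neutrophils, at 833 CPM against 1495 CPM in WT (log2 ratio -0.84). Among the atypical receptors, which take up ligands without signalling to G proteins, Ackr1 stood at 366 CPM in F592A and 462 CPM in WT blood endothelium and Ackr4 at 6.42 and 7.43 CPM in stromal cells, both within 1.5-fold. Ackr2 stayed under 5 CPM, at 1.75 CPM in F592A and 3.06 CPM in WT stromal cells.

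Lists of inducing and responding genes were counted in the same classes. In neutrophils 4 of 8 measured genes of the NF-kB list were lower in the F592A library and 0 higher, against 14.0% of all genes in each direction. Nfkbia, the inhibitor induced by NF-kB, stood at 5296 CPM in F592A and 10610 CPM in WT neutrophils, and Tnf, an inducing cytokine, at 1238 and 2587 CPM. Il1b lay within 1.5-fold, at 6830 CPM in F592A and 9532 CPM in WT neutrophils. Of the interferon list 3 of 4 were lower in F592A neutrophils, against the same 14.0% of all genes, among them Rsad2 at 95.9 CPM against 450 CPM in WT. Of the genes known to be induced by tissue dissociation, 5 of 7 were lower there, again against 14.0%, for example Junb at 1995 CPM against 3412 CPM in WT. Chil3, a macrophage and neutrophil gene of the type 2 cytokine list, had 369 UMIs from 15 F592A neutrophils and 4 UMIs from 2 WT neutrophils. In macrophages none of 10 measured NF-kB list genes was higher or lower. Hspa1b, a heat shock gene of the dissociation list, was higher in F592A stromal cells, at 151 CPM against 79.0 CPM in WT, and in F592A macrophages, at 91.9 CPM against 44.4 CPM in WT. In each of these 2 classes Hspa1a and Hspa1b were the only genes of that list called, and the other 8 of 10 lay within 1.5-fold. The share of all genes higher was 1.75% in stromal cells and 1.66% in macrophages. The part of dissociation, depth or cell state in the ligand values was not tested.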

How the data were processed

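The authors deposited raw UMI counts per gene and cell for each library, with no length correction. The file headers name Cell Ranger 6.0.1. A different version, 2.1.1, stands in the submitters' processing notes beside Seurat and mm10, and no source used here settles which one applies. Cells with at least 500 genes, 1000 UMIs and at most 15% mitochondrial UMIs were kept, doublets called by Scrublet were removed (2.54% of F592A and 2.95% of WT cells), and barcodes found in both libraries were left out, a choice made after seeing the data. The libraries held 181472230 UMIs over 10677 F592A barcodes and 222874195 UMIs over 14868 WT barcodes. Each cell took the class of its best marker score (at least 0.25, a margin of 0.1 and 3 markers detected); 957 of 19476 cells took none, 284 of all cells lay within 0.05 outside the limits and 434 within 0.05 inside. For each library the UMIs of a class were added up and divided by that class total. Intervals are exact Poisson for levels and exact binomial for ratios and shares. The split of mural cells by Kcnj8 and Abcc9 or Myh11 was also chosen after seeing the data. Every member was accounted for, with its level in its highest class and in classes within 4-fold of it. The members and lists were chosen with earlier results of these data known. Ratio calls were tested on simulated counts. Promoters are from RefSeq (GRCm38.p6), which matched 24 of the 34 members, and gene gaps are from GENCODE annotation of GRCm38. Python 3.11.15, numpy 2.4.6, scipy 1.17.1, pandas 2.3.3, scanpy 1.11.5, leidenalg 0.10.2 and matplotlib 3.10.9 were used. Alternatives changed the classes, doublets, cell filter, scaling, weighting, depth, gate margin, free RNA, cell states and thresholds. Some gene levels are not reported here.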

Additional observations from a re-analysis of the deposited data

Results flagged for a closer look

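Cxcl10, a Cxcr3 ligand induced by interferon, stood on opposite sides in different classes. Its log2 ratio, F592A over WT, was 1.41 in blood endothelium and -3.01 in neutrophils. The difference between the classes was not tested, since there is 1 library per genotype. The neutrophil value rests on 11 F592A and 92 WT UMIs, with most of the WT ones in 1 cell. It was -0.26 with the stricter cell filter and 0.25 without interferon-high cells. The opposite sides therefore did not hold in every setting. The blood endothelial ratio ran from 1.29 to 2.23 over the settings.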

How the results depend on the processing

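The 41 ratios were recomputed under up to 13 settings each, and 16 of the 19 called ones stayed past 1.5-fold in every setting that gave a value. The exceptions were Ccl11 in mural cells, Ccl5 in dendritic cells (-0.55 with median-of-ratios scaling and -0.56 with a stricter gate margin, but -1.36 with cells weighted equally or thinned) and Cxcl10 in neutrophils. Cxcl10 in neutrophils stood at -0.26 with the stricter cell filter and reversed to 0.25 without interferon-high cells. The stricter cell filter brought the neutrophil ratios of Ccl3, Ccl4, Cxcl2 and Cxcl3 to -1.36, -1.55, -0.65 and -0.75. Of the ratios within 1.5-fold, those furthest moved were Ccl17 in dendritic cells (-3.84 with a stricter gate margin), Cxcl10 in macrophages (1.13 without interferon-high cells), Ccl25 in blood endothelium (-0.98 thinned) and Cxcl16 in dendritic cells (-0.88 thinned). Signs also turned, for example for Ppbp in macrophages with Leiden clusters (0.52) and for Cxcl9 in blood endothelium without cycling cells (-0.30). Ccl4 in macrophages (0.63 with free RNA subtracted) and Cx3cl1 in blood endothelium (0.63 with trimmed mean of M-values scaling) passed the limit. So did Cxcl10 in mural cells (-0.66 with the stricter cell filter and -0.64 thinned). Cxcl9 in blood endothelium (0.75 at its highest) and Ppbp in macrophages (-0.61 at its lowest) also passed it. Counts of ligands that moved over 1.5 times were as follows. With free RNA subtracted, 2 were lower in stromal cells, 1 higher and 5 lower in mural cells and 5 higher in macrophages. The macrophage values under this setting, Ccl4 among them, rest on a median neutrophil share of 10.1% in F592A and 5.76% in WT. By the lowest tracking gene that share was 0.0264% and 0.0516%, so they may subtract too much. Leiden clusters gave 5 lower in macrophages, and named no dendritic cluster. With doublets kept, and also without cycling cells, 5 were higher in stromal cells. Without interferon-high cells 4 were higher in macrophages, and with the stricter cell filter 1 was higher in neutrophils. With at least 20 UMIs and no minimum level, 11 were lower in stromal cells, 6 in macrophages and 10 in neutrophils. At 2-fold, 1 was higher and 0 lower in macrophages. The shares of all genes under these settings are not given here, so these counts have no background to be read against. The cause was not tested. Scaling by trimmed mean of M-values moved all ratios by 0.12 in blood endothelium, 0.11 in lymphatic endothelium, 0.11 in T or NK cells and -0.11 in neutrophils; median-of-ratios scaling moved them by 0.12 in lymphatic endothelium, 0.12 in dendritic cells and 0.10 in T or NK cells. Keeping the shared barcodes, an alternative chosen after seeing the data, brought Ccl11 in mural cells to -0.58. No paired analysis was possible because each genotype has 1 library. Few cells limit the neutrophil, dendritic, lymphatic and T or NK values, and fewer molecules per cell cannot be told apart from a lower capture rate.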
